A study of Mus musculus with 8 samples.

Results

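The genes that encode collagen chains were followed in ventricles of mouse embryos at embryonic day 15.5. Members were all genes of the deposited table whose symbol is Col, a type number, the letter a and a chain number, as in Col1a1. This rule found 44 of the 53465 genes, with 9 fibrillar chains (types I, II, III, V and XI), 8 basement membrane chains (IV, XV and XVIII), 4 transmembrane chains (XIII, XVII, XXIII and XXV) and 23 others. RNA-seq was compared between 4 WT libraries and 4 libraries labelled Nrg-1flox;Cdh5-CreERT2, called Flox-labelled from here on, with 1 ventricle per library according to the series design. In this line a Cre recombinase that tamoxifen activates is driven by the promoter of Cdh5, an endothelial cadherin gene, and is meant to cut floxed Nrg1 in endothelial cells. Nrg1 encodes neuregulin-1, a growth factor that the endocardium sends to cardiomyocytes. The time and dose of tamoxifen, and whether the WT embryos carried floxed or Cre alleles or received tamoxifen, are not given in the sources used here. Nor do these sources tie a library to a litter or say whether sexes were separated, so p-values measure the spread between these libraries.

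Collagens are matrix proteins in which chains with a glycine at regular intervals wind around each other into a helix. Fibrillar collagens form the fibrils that fibroblasts lay down in the heart wall and valves, and network-forming collagen IV is the scaffold of the basement membrane around cardiomyocytes and vessels. Transmembrane collagens stay anchored in the cell surface, and their outer parts can be shed. Collagen XIII is known at sites of adhesion, among them the neuromuscular junction.

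Library totals lay between 16761763 and 24144272 expected counts. Levels are given as CPM, expected counts scaled by library size and TMM factor. Levels of different genes are compared as CPM per kb of exonic length unless CPM is named. That length joins all annotated exons of a gene and can exceed the length of its main transcript. Ratios and ranks between genes per kb depend on it. The gene-level count of Nrg1, the targeted gene, was not lower in Flox-labelled libraries. It was at 4.08 to 5.46 CPM in the WT group and at 5.36 to 6.83 CPM in Flox-labelled libraries. The log2 fold change was 0.34 (SE 0.12, adjusted p = 0.311). Such a count covers all exons and all cells together, so it cannot show whether the floxed part was cut in endothelial cells. Each direction here is therefore that of the labelled libraries. Cardiomyocyte markers summed to between 31820 and 37460 CPM, while the airway markers Sftpc and Nkx2-1 and the skeletal muscle regulators Myod1 and Myf5 were at 0 in all libraries. The rest of these airway and skeletal muscle lists was low but not at 0. Myog was at 0.174 to 0.703 CPM and Epcam at 0.0439 to 0.231 CPM, while Chrna1 and Foxa2 reached at most 0.0589 and 0.042 CPM. The Y-linked sum of 4 genes ranged from 69.3 to 171 CPM in the WT group and from 42.9 to 120 CPM in Flox-labelled libraries, and in each group library 4 had the highest value. Xist, the RNA that coats a silenced X chromosome, stood at 103 to 327 CPM in 7 libraries and at 0.176 CPM in WT library 4. Thus 7 of the 8 libraries held Xist together with Y-linked transcripts, which goes against RNA from a single embryo in each, and the source of this was not tested.

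In edgeR's quasi-likelihood test, Col13a1 was the only collagen chain at an adjusted p below 0.05, and it fell by 33.2%. The number of called chains depended on the setting. DESeq2 called 6 of 39 chains (Col6a6, Col9a1, Col11a1, Col13a1, Col15a1 and Col18a1) and 198 of all 15388 tested genes. Testing without a filter called these chains and Col2a1, 7 of 44, and 338 of 29350 genes. The main test called 81 of 15388 genes, so calls also rose over all genes. No chain was called in 5 of the 8 fits that left out 1 library (WT 1, WT 2, Flox-labelled 1, 2 or 3) or in the fit that held the Y-linked level. The abundant chains of collagens I and III differed less between the groups than among libraries of a group. Among the 39 chains that passed the filter on low counts, 1 was called (2.56%), and it was lower, where 0.526% of all 15388 tested genes were called and 0.214% were called and lower. At an adjusted p below 0.1 there were 4 chains (10.3%, against 1.23% of all genes), which added Col18a1, Col9a1 and Col11a1. Unadjusted p was below 0.05 for 15 chains (38.5%), against 10.5% of all tested genes, and 14 of the 15 were lower (35.9%, against 5.41%). The fitted change was below 0 in 29 of 39 chains (74.4%), against 50.6% of all genes, and the median log2 fold change was -0.07 over the chains and 0.00 over all genes. Values of the groups did not overlap for 9 chains (23.1%, against 6.05%). These are Col4a1, Col4a6, Col9a1, Col11a2, Col13a1, Col18a1, Col24a1 and Col27a1, which were lower, and Col11a1, which was higher. Without WT library 4 the number of chains at an unadjusted p below 0.05 was 10, as it was without Flox-labelled library 3. In the fit that held the Y-linked level this number was 8, and 6 of these were lower. There 20 of 39 chains had a fitted change below 0. Calls over all genes fell in these fits too, from 81 to 33, 11 and 16 in the order given. The share of all genes at an unadjusted p below 0.05 is not given for these fits.

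**Figure D1:**
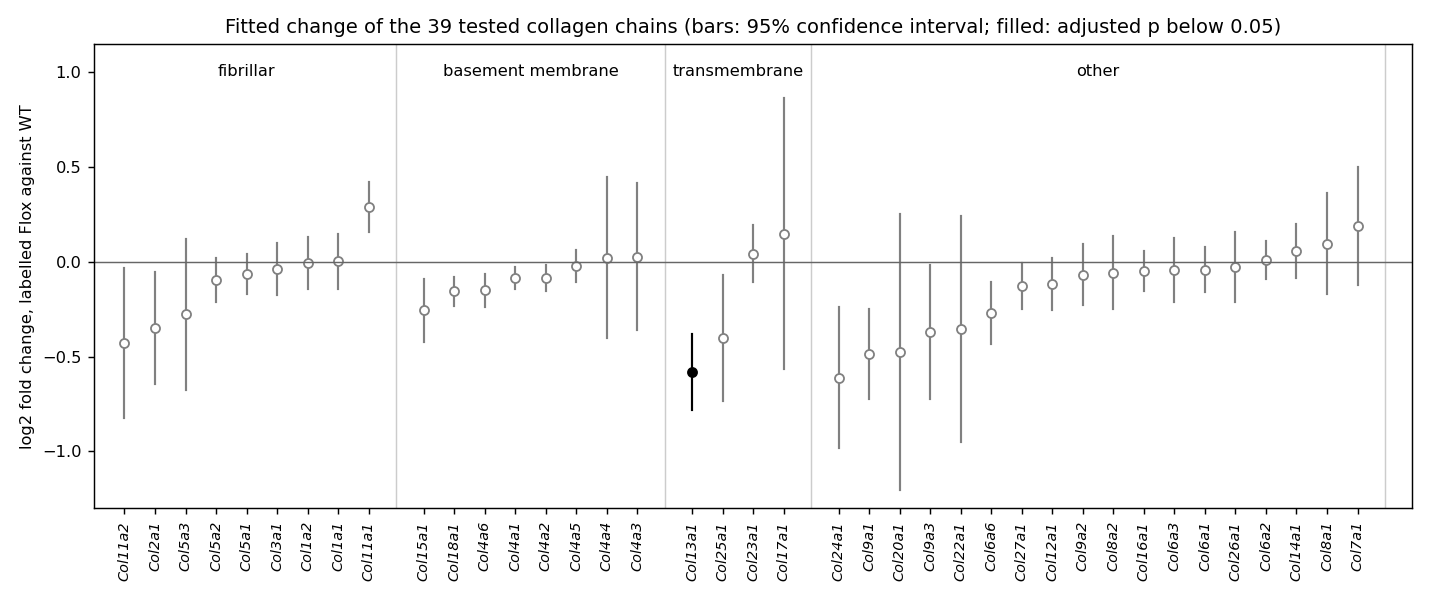
Fitted log2 fold change of each of the 39 tested collagen chains, Flox-labelled against WT (4 libraries each), by class; points are the estimates and bars their 95% confidence intervals. Only Col13a1 (filled) had an adjusted p below 0.05, while intervals of Col1a1, Col1a2 and Col3a1 lie on both sides of 0.

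The stretch of 250 bases before the transcription start was taken from RefSeq (GRCm38.p6) for Col13a1 and Col11a1. It is shown because the smallest p in each direction belonged to these chains. Capitals mark the TATA box letters TATAAA, the GC box letters GGGCGG and the CCAAT box, which on the opposite strand reads ATTGG. No exon of GENCODE M21 lies in either window.

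Col13a1, chr10:61979109-61979358, minus strand: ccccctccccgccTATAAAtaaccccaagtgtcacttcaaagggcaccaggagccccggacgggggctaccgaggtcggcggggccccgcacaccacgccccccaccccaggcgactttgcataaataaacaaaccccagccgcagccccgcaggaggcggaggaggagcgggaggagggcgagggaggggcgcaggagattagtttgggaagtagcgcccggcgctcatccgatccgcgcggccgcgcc

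Col11a1, chr3:114030290-114030539, plus strand: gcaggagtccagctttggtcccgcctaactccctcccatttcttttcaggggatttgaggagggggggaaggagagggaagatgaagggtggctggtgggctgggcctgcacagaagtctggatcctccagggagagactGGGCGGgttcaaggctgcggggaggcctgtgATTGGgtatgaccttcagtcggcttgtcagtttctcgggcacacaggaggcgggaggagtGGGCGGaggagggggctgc

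The Col13a1 window held 68.8% G and C and 1 TATAAA, whose first base lies 237 bases before the start. No GC box or CCAAT letters occur there. In the Col11a1 window, with 62.4% G and C, there were 2 GC boxes and 1 CCAAT box. RefSeq windows could be matched for 35 of the 44 genes, with 38 starts. On either strand, GGGCGG occurred in 57.9% of these 38 windows and in 32.7% of all 32851 windows of the same length. For CCAAT the shares were 34.2% and 33.8%, and for TATAAA 13.2% and 12.4%. A match describes the letters only.

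Fibrillar and basement membrane chains made up most of the collagen transcripts. All 44 genes together held 0.927% to 1.08% of the counts of a library. By CPM, Col3a1 gave 19.2% of the collagen total, Col1a1 16.2%, Col4a1 14.5%, Col1a2 12.7% and Col4a2 8.36%, so these 5 genes held 71%. Per kb of exonic length, Col1a1 stood highest, at 245 CPM per kb in WT and 246 in Flox-labelled libraries, before Col3a1 (196 and 192), Col4a1 (198 and 186), Col4a2 (129 and 122) and Col1a2 (102 and 101). Col1a2 thus stood above Col4a2 by CPM and below it per kb. At the other end, Col6a4, Col6a5, Col10a1, Col19a1 and Col28a1 held between 0 and 12 expected counts per library, did not pass the filter and were not tested. Col10a1, a marker of hypertrophic cartilage, had at most 3 counts in any library.

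**Figure D2:**
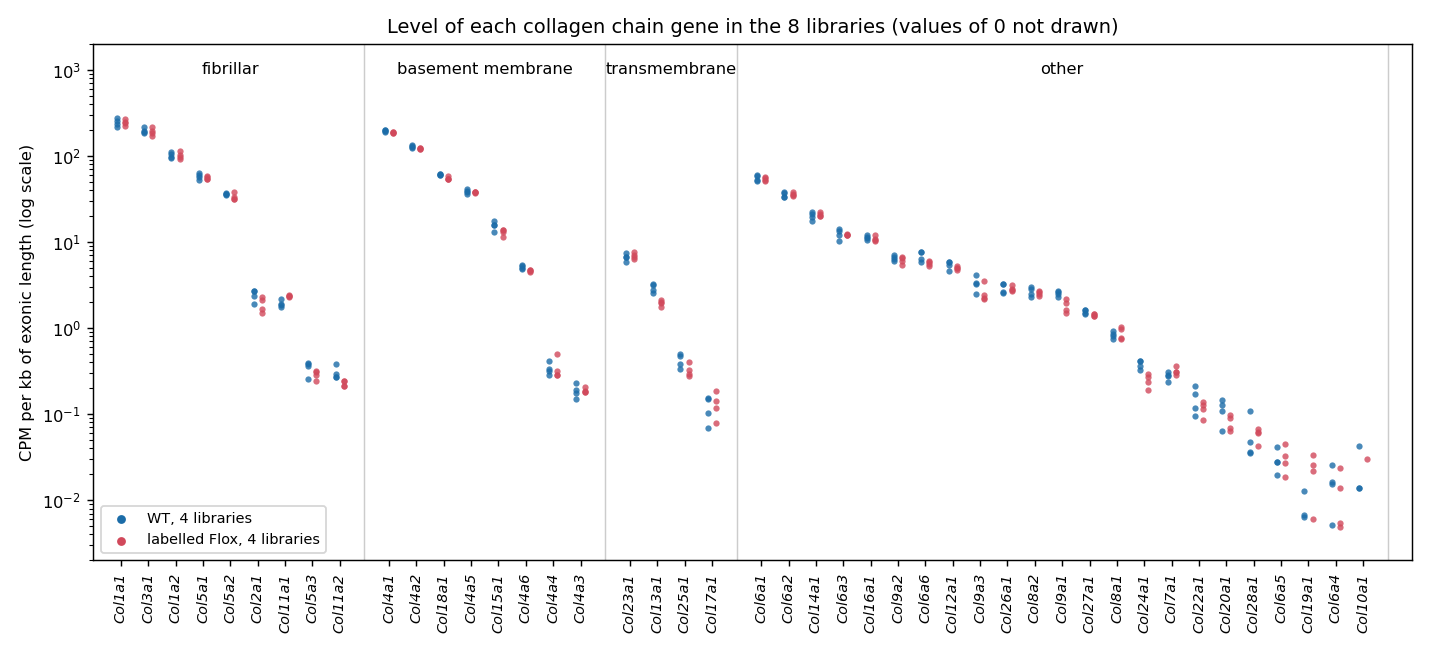
Level of each of the 44 collagen chain genes in CPM per kb of exonic length (log axis), by class, with 1 point per library (WT and Flox-labelled, 4 each); libraries at 0 are not drawn. Levels span from about 245 CPM per kb for Col1a1 to under 0.1 for the genes at the right, and the groups lie on top of each other for most chains.

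Of the fibrillar chains, those of collagens I and III were close in level between the groups. Col1a1 (ENSMUSG00000001506, GRCm38 chromosome 11, 94936224 to 94953042) encodes the alpha 1 chain of the main fibril collagen. It was at 1541, 1430, 1679 and 1788 CPM in the WT libraries, in the order 1 to 4, and at 1458, 1633, 1584 and 1779 CPM in Flox-labelled libraries 1 to 4. The groups overlapped almost entirely, and the log2 fold change was 0.00 (95% confidence interval -0.14 to 0.15, adjusted p = 0.993). Col1a2, its partner chain, was at 1213, 1170, 1301 and 1375 CPM in the WT group and at 1149, 1269, 1200 and 1424 CPM in Flox-labelled libraries, with a log2 fold change of -0.01 (-0.14 to 0.13, adjusted p = 0.991). Col3a1, which co-assembles with collagen I in fibrils of elastic tissues, was at 1804, 1856, 1937 and 2113 CPM in the WT group and at 1691, 1893, 1809 and 2126 CPM in Flox-labelled libraries, with a log2 fold change of -0.04 (-0.17 to 0.10, adjusted p = 0.902). Thus changes of more than about 0.17 in either direction lay outside the intervals of all 3 genes. In each group, library 4 had the highest Col1a1, Col1a2 and Col3a1. Library 4 also had the highest Y-linked sum of its group (171 and 120 CPM), and with that sum as a covariate the log2 fold change of Col1a2 was 0.11 and that of Col3a1 was 0.06. The part of the Y-linked difference in these values was not tested.

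The ratio of the 2 collagen I chains was steady. Per kb, Col1a1 stood at 2.31 to 2.46 times Col1a2 in WT and at 2.37 to 2.50 times in Flox-labelled libraries. The size of this ratio depends on the exonic lengths used, 6563 bases for Col1a1 and 12426 for Col1a2. By CPM the 2 genes were closer, at WT means of 1610 and 1265. Collagen V, which starts and limits the width of collagen I fibrils, had Col5a1 at 450 to 531 CPM in the WT group and 459 to 500 CPM in Flox-labelled libraries (log2 fold change -0.06, adjusted p = 0.728). For Col5a2 the ranges were 336 to 357 and 304 to 368 CPM (-0.09, adjusted p = 0.593), with Flox-labelled library 4 above every WT library. Without that library Col5a2 reached a log2 fold change of -0.16 and an adjusted p of 0.049. Col5a3 was rare, at 1.72 to 2.65 CPM in the WT group and 1.63 to 2.14 CPM in Flox-labelled libraries (-0.28, adjusted p = 0.649).

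Col11a1 had the smallest p of the 10 tested chains with a fitted change above 0. It encodes a chain of collagen XI, a minor fibrillar collagen that is known from cartilage and is also made in embryonic mesenchyme. It was at 23.7, 22.5, 24.2 and 27.8 CPM in the WT group and at 29.7, 31.2, 30.2 and 29.0 CPM in Flox-labelled libraries. Every Flox-labelled library stood above the highest WT library, WT library 4. The mean was 24.6 ± 2.27 CPM in the WT group and 30.0 ± 0.919 CPM in Flox-labelled libraries (SD, n = 4). The log2 fold change, 0.29 (SE 0.061), did not pass over all genes (adjusted p = 0.0598). Without WT library 4 it was 0.36 (adjusted p = 0.0155). Its log2 fold change was between 0.25 and 0.36 in the 17 alternatives, and the adjusted p between 0.00259 and 0.186. Col7a1, the anchoring fibril collagen of skin, came next by p among chains with a fitted change above 0. It was at 2.91, 2.43, 2.82 and 3.16 CPM in the WT group and at 3.13, 2.89, 3.73 and 3.18 CPM in Flox-labelled libraries, and the groups overlapped (0.19, adjusted p = 0.704). The fibril-associated Col14a1, next after it, had a log2 fold change of 0.06 (adjusted p = 0.832).

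Chains best known from cartilage, gathered here after their values were seen, had fitted values below 0, in the other direction than Col11a1. Col9a1, a chain of the fibril-associated collagen IX, was at 13.6, 12.5, 11.7 and 13.4 CPM in the WT group and at 8.14, 7.64, 10.0 and 11.01 CPM in Flox-labelled libraries. The groups did not overlap, and the highest Flox-labelled library (library 4) stood just under the lowest WT library. Its log2 fold change was -0.49 (SE 0.109, adjusted p = 0.0743), and without Flox-labelled library 4 it was -0.58 (adjusted p = 0.0297). Col2a1, the fibril collagen of cartilage that is also found in developing valves, was at 17.7 to 24.9 CPM in the WT group and 13.8 to 21.5 CPM in Flox-labelled libraries (-0.35, adjusted p = 0.378). Col11a2 was at 1.86 to 2.64 CPM in the WT group and 1.45 to 1.68 CPM in Flox-labelled libraries, without overlap (-0.43, adjusted p = 0.429). Col9a3 was at 9.63 to 15.9 and 8.30 to 13.4 CPM (-0.37, adjusted p = 0.446), while Col9a2 had a smaller fitted difference, at 18.4 to 21.6 and 16.9 to 20.95 CPM (-0.07, adjusted p = 0.828). In the fit that held the Y-linked level the direction turned for Col9a3 (0.0194), and the log2 fold change was -0.226 for Col2a1, -0.2837 for Col11a2 and -0.3431 for Col9a1.

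Cartilage markers had fitted values in the same direction. All 3 of the 5 listed markers that could be tested had a fitted change below 0, with a median log2 fold change of -0.62, and none was called. Acan, the cartilage proteoglycan aggrecan that is also made in valves, was at 9.16, 7.60, 14.2 and 13.4 CPM in the WT group and at 4.85, 5.54, 7.09 and 8.59 CPM in Flox-labelled libraries (-0.78, SE 0.208, adjusted p = 0.142). The summed level of the 5 markers was 10.5 to 18.4 CPM in the WT group and 7.33 to 12.2 CPM in Flox-labelled libraries. The 2 listed markers that could not be tested, Matn1 and Matn3, were near 0, at group means of at most 0.13 CPM. Sox9, a transcription factor of cartilage and valve mesenchyme, was at 15.6 to 19.6 and 13.5 to 18.6 CPM (-0.19, adjusted p = 0.564). Which cells gave these transcripts was not tested. In bulk RNA, fewer cells of a type cannot be told apart from less RNA per cell.

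**Figure D3:**
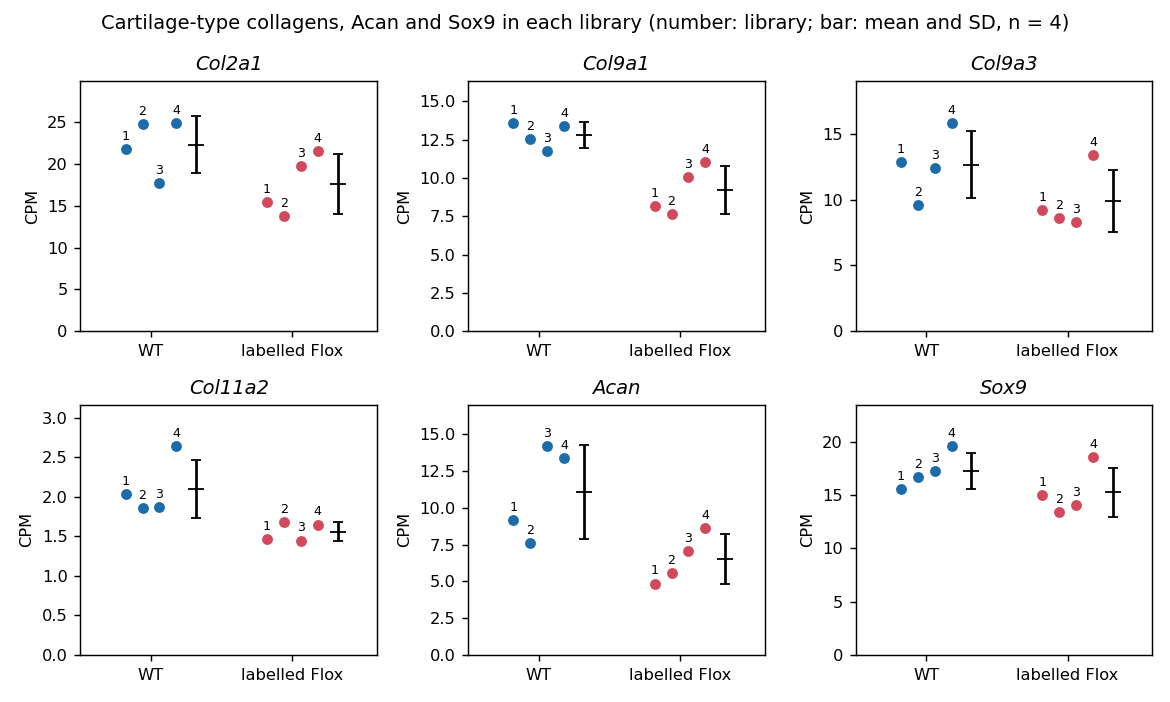
Level in CPM (axis from 0) of 4 cartilage-type collagen genes, the proteoglycan gene Acan and the transcription factor gene Sox9 in each library, numbered by library, with the mean and SD of each group (n = 4). Col9a1 and Col11a2 do not overlap between the groups, Col2a1, Col9a3, Acan and Sox9 do, and Flox-labelled library 4 is the highest of its group except for Col11a2.

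In the basement membrane class, fitted log2 fold changes lay between -0.25 and 0.03 and were mostly below 0. The spread within groups differed by chain. The coefficient of variation was 2.61% in WT for Col4a1, but 11.5% in WT for Col15a1 and 30.8% in Flox-labelled libraries for the rare Col4a4. The summed level of the 8 chains was 3138, 3081, 3213 and 3219 CPM in the WT group and 2989, 2936, 2919 and 3006 CPM in Flox-labelled libraries. Every Flox-labelled library thus stood below every WT library, whereas the fibrillar sums overlapped, at 5293 to 6222 and 5125 to 6251 CPM. The median log2 fold change was -0.08 over the 8 basement membrane chains, with 6 of 8 below 0, where 50.6% of all genes were, and 5 of 8 had an unadjusted p below 0.05, where 10.5% of all genes did. In the fit that held the Y-linked level the median was -0.0507, with Col4a1 at -0.0527 and Col4a2 at -0.0486. None of the 8 was called by edgeR, while DESeq2 called Col18a1 (adjusted p = 0.00102) and Col15a1 (adjusted p = 0.047), as did edgeR without a filter (0.0145 and 0.00204).

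Col4a1 (ENSMUSG00000031502, GRCm38 chromosome 8, 11198423 to 11312826) and Col4a2 (11312805 to 11449287) encode the chains of the ubiquitous collagen IV network. Their genes lie head to head, and the RefSeq starts are 21 bases apart on opposite strands. Col4a1 was at 1468, 1424, 1505 and 1505 CPM in the WT group and at 1410, 1372, 1374 and 1407 CPM in Flox-labelled libraries, without overlap (log2 fold change -0.09, SE 0.0275, adjusted p = 0.26). Col4a2 was at 845, 814, 883 and 871 CPM in the WT group and at 815, 804, 789 and 814 CPM in Flox-labelled libraries, with a slight overlap (-0.08, SE 0.0314, adjusted p = 0.36). Per kb, Col4a1 was 1.51 to 1.55 times Col4a2 over all 8 libraries. Coefficients of variation within groups were 1.48% to 3.60% for these genes, against 7.03% to 9.79% for Col1a1, Col1a2 and Col3a1.

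The other collagen IV chains differed in level by orders of magnitude. Col4a5 was at 242 to 276 CPM in the WT group and 251 to 259 CPM in Flox-labelled libraries (-0.02, adjusted p = 0.902). Its head-to-head neighbour on the X chromosome, Col4a6, was at 39.02 to 42.7 and 36.0 to 37.6 CPM, without overlap (-0.15, SE 0.0401, adjusted p = 0.14). Their starts lie 1343 bases apart, and the ratio of Col4a5 to Col4a6 per kb was 7.11 to 7.79 in WT and 7.92 to 8.41 in Flox-labelled libraries. Col4a3 and Col4a4, chains of the mature kidney glomerulus network, were near the lower end, at 1.48 to 2.27 and 2.98 to 5.36 CPM over the 8 libraries.

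Col18a1 (ENSMUSG00000001435, chromosome 10, 77052178 to 77166548) encodes the precursor of endostatin, a fragment known to restrain vessel growth. Its levels were 420, 436, 427 and 436 CPM in the WT group and 378, 381, 375 and 410 CPM in Flox-labelled libraries. Each Flox-labelled library was below each WT library, and library 4 was the nearest to them. The log2 fold change was -0.16 (SE 0.0344), and it did not pass (adjusted p = 0.0711). Without Flox-labelled library 4 it was -0.19 (adjusted p = 0.0141), and after a correction for GC content and length it was -0.18 (adjusted p = 0.0339). Col15a1, the related chain at the outer face of basement membranes, was at 101, 83.9, 112 and 99.4 CPM in the WT group and at 87.8, 82.4, 88.1 and 72.8 CPM in Flox-labelled libraries (-0.25, adjusted p = 0.211).

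Endothelial cells, which make much of this matrix in vessels, were followed by 10 markers. Of these, 8 had a fitted change below 0 (80%, against 50.6% of all genes), with a median log2 fold change of -0.07 and none called. Their summed level was 1448 to 1488 CPM in the WT group and 1348 to 1453 CPM in Flox-labelled libraries. Kdr (-0.17, adjusted p = 0.0694), Tie1 (-0.17, adjusted p = 0.121) and Esam (-0.15, adjusted p = 0.0584) had values without overlap (30%, against 6.05% of all genes). Emcn had the largest fitted change of the 10 in size and was above 0, with overlap (0.18, adjusted p = 0.358). Cdh5 was at 0.01 (adjusted p = 0.967). The part of these cells in the collagen IV, XV and XVIII values was not tested.

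Col13a1 (ENSMUSG00000058806, GRCm38 chromosome 10, 61838236 to 61979108, minus strand) led the transmembrane chains. It was at 14.5, 14.8, 11.8 and 12.7 CPM in the WT group and at 8.95, 8.10, 9.79 and 9.24 CPM in Flox-labelled libraries, from 157 to 336 expected counts per library. Every Flox-labelled library lay below the lowest WT library, WT library 3. The mean fell from 13.5 ± 1.44 to 9.02 ± 0.709 CPM (SD, n = 4). On the log2 scale the fold change was -0.58 (95% confidence interval -0.78 to -0.38, SE 0.0928, adjusted p = 0.0208). All counts of this gene were whole numbers (within 0.005) and it shares no exonic bases with another gene. The call did not hold without WT library 1 (adjusted p = 0.0538), WT library 2 (0.0705), Flox-labelled library 1 (0.0583), library 2 (0.0592) or library 3 (0.0534), or in the fit that held the Y-linked level (0.0836), where the log2 fold change was -0.62. Over all 17 alternatives the log2 fold change stayed between -0.64 and -0.53.

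The other transmembrane chains did not pass. Col25a1, a chain known for its part in the innervation of muscle, was at 6.43, 4.37, 4.997 and 6.15 CPM in the WT group and at 4.20, 3.57, 3.78 and 5.18 CPM in Flox-labelled libraries (-0.40, SE 0.154, adjusted p = 0.364). Labelled-Flox library 4 lay within the WT range. Fitted together with the Y-linked level, it stood at -0.12. Col23a1, per kb the most abundant of the class, was at 37.9, 42.9, 33.7 and 38.9 CPM in the WT group and at 40.4, 36.5, 38.4 and 43.3 CPM in Flox-labelled libraries (0.04, 95% confidence interval -0.11 to 0.19, adjusted p = 0.893). Col17a1, the hemidesmosome collagen of epithelia, was close to the detection limit with 8 to 24 counts per library. It was at 0.416, 0.927, 0.913 and 0.615 CPM in the WT group and at 0.859, 0.713, 1.12 and 0.471 CPM in Flox-labelled libraries (0.15, SE 0.33, adjusted p = 0.931).

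Markers of cells that could carry collagen XIII were compared as well. Of the Schwann cell markers, Sox10 and Foxd3 were at group means of at most 0.387 CPM and could not be tested. Erbb3, which other heart cells also express, was at 16.0 CPM in the WT group and 17.3 CPM in Flox-labelled libraries (0.12, adjusted p = 0.67). Of 8 fibroblast and valve mesenchyme markers outside the collagens, 7 had a fitted change below 0 (87.5%, against 50.6% of all genes). The median log2 fold change was -0.18 and none was called. Fbln1 (-0.21, adjusted p = 0.184) and Postn (-0.18, adjusted p = 0.225) had the smallest p of the 8, and Tcf21 was above 0 (0.07, adjusted p = 0.859). The summed level of the 8 was 1083 to 1265 CPM in the WT group and 957 to 1132 CPM in Flox-labelled libraries. Mural cell markers were below 0 in 7 of 8, with a median of -0.13, although their sum, mostly from Acta2, was 1727 to 1843 CPM in the WT group and 1805 to 1905 CPM in Flox-labelled libraries. By contrast, epicardial markers were below 0 in 0 of 6, with a median of 0.12. Neither list held a call, and their part in the Col13a1 difference was not tested.

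**Figure D4:**
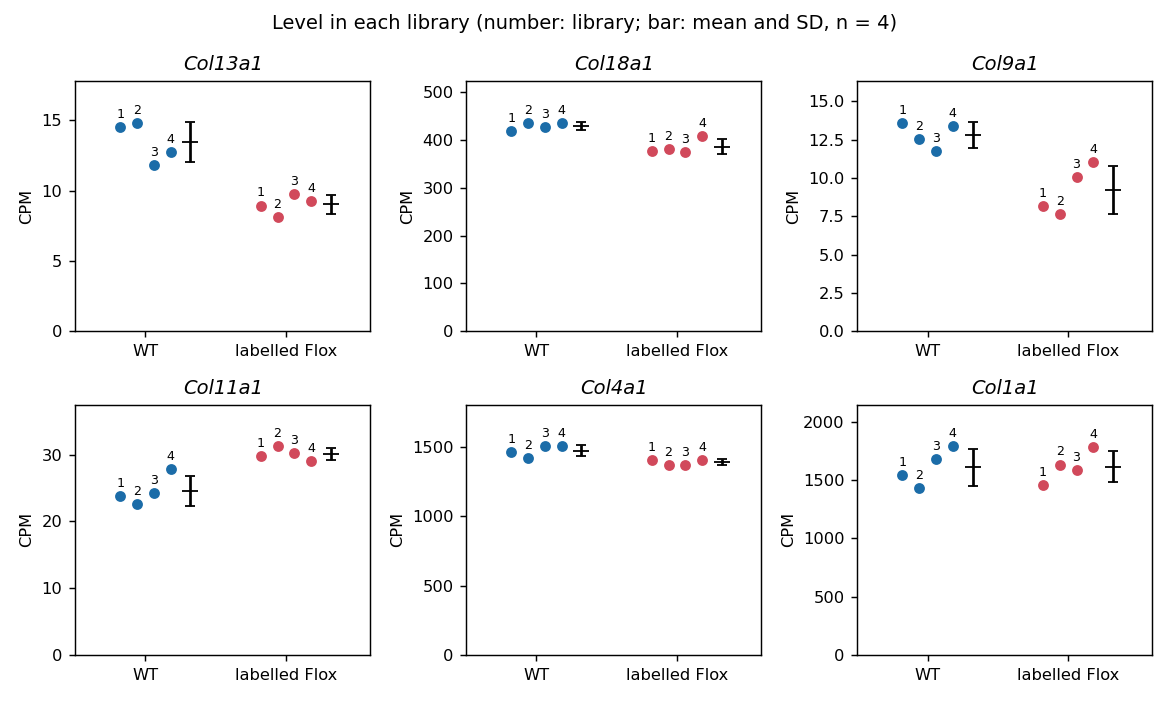
Level in CPM (axis from 0) of Col13a1, Col18a1, Col9a1, Col11a1, Col4a1 and Col1a1 in each library, numbered by library, with the mean and SD of each group (n = 4). The groups are apart for Col13a1, Col18a1, Col9a1, Col4a1 and, in the other direction, Col11a1, and they overlap for Col1a1, where library 4 is the highest in each group.

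Of the 23 other chains 18 were tested, and edgeR called none. An unadjusted p below 0.05 was found for 5 (27.8%, against 10.5% of all genes). DESeq2 called Col9a1 (adjusted p = 0.00909) and Col6a6 (adjusted p = 0.0439). Of the 18, 14 had a fitted change below 0 (77.8%, against 50.6% of all genes), with a median log2 fold change of -0.06. Collagen VI, the beaded filament collagen between cells and fibrils, was the most abundant of them. Col6a1 was at 226, 228, 256 and 266 CPM in the WT group and at 223, 248, 232 and 246 CPM in Flox-labelled libraries (-0.04, adjusted p = 0.872). Col6a2 was at 280, 278, 311 and 315 CPM in the WT group and at 292, 314, 285 and 301 CPM in Flox-labelled libraries (0.01, adjusted p = 0.97). Col6a3, the large chain, ranged from 121 to 169 CPM in the WT group and only from 143 to 148 CPM in Flox-labelled libraries (-0.04, adjusted p = 0.909). Per kb, Col6a1 was 1.45 to 1.61 times Col6a2 and 4.13 to 5.13 times Col6a3 over all libraries. The order of Col6a1 and Col6a2 depends on the exonic lengths used, 4380 and 8326 bases. By CPM, Col6a2 was above Col6a1 in every library. Col14a1, next in the class per kb after Col6a1 and Col6a2, was at 136, 123, 148 and 157 CPM in the WT group and at 140, 150, 140 and 159 CPM in Flox-labelled libraries, and its groups overlapped.

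Col6a6, an alternative chain of collagen VI, was at 53.7 to 69.8 CPM in the WT group and 48.8 to 54.8 CPM in Flox-labelled libraries (-0.27, adjusted p = 0.174). DESeq2 (adjusted p = 0.0439) and edgeR without a filter (adjusted p = 0.00144) called it, and in the fit that held the Y-linked level it was at -0.1473. Its counts were not whole in any library, so some of its reads were divided with other genes. The same held for Col3a1, Col5a1, Col6a5 and Col22a1. Col24a1, a fibril-type collagen of bone that the classes used here count as other, had the most negative fitted value of all tested chains, -0.61 (SE 0.173, adjusted p = 0.174). It was at 2.45 to 3.16 CPM in the WT group and 1.45 to 2.22 CPM in Flox-labelled libraries, without overlap, from 31 to 72 counts. Col27a1, also fibril-type, was at 19.2 to 21.3 and 17.9 to 19.1 CPM (-0.13, adjusted p = 0.439).

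Among the fibril-associated chains Col12a1 (70.5 to 88.9 CPM over all libraries), Col16a1 (69.0 to 81.0 CPM), Col20a1 (0.324 to 0.747 CPM) and Col22a1 (0.793 to 1.93 CPM), log2 fold changes lay between -0.47 and -0.05, and the adjusted p was at least 0.578. The network-forming Col8a1 (5.86 to 8.05 CPM) and Col8a2 (10.4 to 13.6 CPM) were at 0.10 and -0.06. Col26a1 was at -0.03, with 21.1 to 26.4 CPM.

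Genes that modify, export, cut, cross-link, bind or break down collagen were then examined as a list of 59, of which 56 could be tested. No gene was called in edgeR's test. At an unadjusted p below 0.05 there were 11, of which 9 were lower (16.1%, against 5.41% of all genes), and the median log2 fold change was -0.03. Plod2, the lysyl hydroxylase of collagen telopeptides, had the smallest p and stood higher in every Flox-labelled library. It was at 78.4, 79.5, 82.2 and 81.3 CPM in the WT group and at 87.9, 93.8, 85.6 and 89.7 CPM in Flox-labelled libraries (0.15, SE 0.0337, adjusted p = 0.0711), and it was called by DESeq2 and without a filter. Next above 0 were the collagen receptor Ddr1 (0.10, adjusted p = 0.332) and the cross-linking oxidase Loxl1 (0.14, adjusted p = 0.499). Below 0, the smallest p belonged to Itga2, a collagen-binding integrin chain (-0.18, adjusted p = 0.352), to Mmp14, a membrane collagenase (-0.13, adjusted p = 0.364), and to Ppib, a prolyl isomerase of collagen folding (-0.07, adjusted p = 0.39).

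By step, 7 of 14 hydroxylation and glycosylation genes had a fitted change below 0 (median -0.01), as did 6 of 8 folding and export genes (-0.02), 4 of 7 propeptide removal genes (-0.07), 2 of 4 tested cross-linking genes (0.01), 7 of 8 fibril-binding genes (-0.08), 6 of 8 receptors (-0.05) and 6 of 7 tested breakdown genes (-0.06). Serpinh1, the collagen-specific chaperone HSP47, was at 885 CPM in the WT group and 889 CPM in Flox-labelled libraries (0.00, adjusted p = 0.979), and Lox, the main cross-linking oxidase, was at 67.6 and 65.4 CPM (-0.05, adjusted p = 0.906).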

How the data were processed

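RNA-seq of polyadenylated RNA was made from 8 libraries with a directional kit and single reads. Per the labels, the authors deposited RSEM 1.3.1 expected counts per Ensembl gene on GRCm38 after cutadapt, with release 91 in the table's name. Expected counts divide a read that matches several genes, and 18.1% of the values were not within 0.005 of a whole number. The aligner and use of strand are not given in the sources used here. The counts were rounded, and names, positions and exonic lengths came from GENCODE M21, also on GRCm38, which matched 53360 of 53465 identifiers. The filterByExpr filter left 15388 genes. Groups were compared with edgeR 4.0.16 (TMM, glmQLFit, glmQLFTest, two-sided) in R 4.3.3, and p-values were adjusted by Benjamini-Hochberg across all genes tested, with a threshold of 0.05. SE and 95% intervals came from the quasi-likelihood F statistic. No 2 libraries agreed within sampling noise (the smallest chi-square was 2.98 per degree of freedom). Fits were checked on simulated data, except the fit with the Y-linked covariate and those that left out a library.

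Members and lists were chosen with earlier results of these data known. Values per library are given for the called chain, the 3 chains of each class with the highest level per kb, all transmembrane chains and the 3 with the smallest p in each direction; of the processing list, those 3 in each direction are named. Further chains without overlap, or near these, were given with values after those were seen. Alternatives were RLE scaling, library totals alone, testing without a filter, requiring a CPM of 1 or more in 4 libraries, DESeq2 1.42.0, limma 3.58.1 voom, leaving out each library, the replicate number as a block, the Y-linked level as a covariate, a GC and length correction (lowess span 0.3) and a threshold of 0.1. Figures were drawn with matplotlib 3.10.9. Some listed marker genes are not reported here.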

Additional observations from a re-analysis of the deposited data

Results flagged for a closer look

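Over the 39 tested chains, 78 groups of 4 values were examined for a library far from the other 3, and 2 were found, where chance alone gives about 3.9. Col4a3 was at 2.06 CPM in Flox-labelled library 4, against 1.82 to 1.85 CPM in the rest of its group. In WT library 2, Col5a3 stood at 1.72 CPM, while the rest of its group had 2.50 to 2.65 CPM. Both genes are among the rarer chains, and the cause was not tested.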

How the results depend on the processing

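Col13a1 kept its direction in all 17 alternatives and its call in 11. Without a filter, 7 chains were called (6 lower, 1 higher) and 338 genes (154 higher, 184 lower), and with DESeq2 6 chains (5 lower, 1 higher) and 198 genes (103 higher, 95 lower). In each, 1 processing gene, Plod2, was called, as it was at an adjusted p below 0.1, where 4 chains (3 lower, 1 higher) and 190 genes (95 higher, 95 lower) passed. In the fit that held the Y-linked level no chain was called (0, and 0 lower), 16 genes were (12 higher, 4 lower), 8 chains had an unadjusted p below 0.05 (6 lower) and the basement membrane median was -0.0507. The GC and length correction called 2 chains, both lower (2), and 29 genes higher, and limma voom called 30 genes higher. Requiring a CPM of 1 removed Col17a1 and gave a transmembrane median of -0.4019. Leaving out 1 library at a time called 0 to 4 chains (0 to 4 lower, 0 to 1 higher) and 11 to 142 genes (6 to 61 higher, 5 to 81 lower), with 9 to 17 chains lower at an unadjusted p below 0.05 and a basement membrane median of -0.1185 to -0.0703. Chains were called without WT library 3 (Col13a1), WT library 4 (Col11a1, Col13a1) and Flox-labelled library 4 (Col5a2, Col9a1, Col13a1, Col18a1), and without any other library none was.

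Some fitted changes turned sign, of which Col9a3 had one of -0.37 in the main comparison. With the Y-linked covariate these were Col9a3 (0.0194), Col12a1 (0.0025), Col5a2 (0.0095), Col5a1 (0.0246), Col16a1 (0.0463), Col8a1 (-0.1259), Col6a1 (0.0198), Col8a2 (0.0162), Col3a1 (0.0623), Col6a3 (0.0884), Col17a1 (-0.2033), Col26a1 (0.0125) and Col1a2 (0.1089). With limma voom this was Col4a4 (-0.0215), and with the GC and length correction Col1a2 (0.0047) and Col1a1 (-0.0026). Over the left-out libraries the ranges crossed 0 for Col14a1 (-0.0023 to 0.1141), Col6a1 (-0.0748 to 0.0055), Col8a2 (-0.1178 to 0.009), Col23a1 (-0.0134 to 0.1013), Col3a1 (-0.1006 to 0.0127), Col4a5 (-0.0514 to 0.0103), Col6a3 (-0.1299 to 0.0234), Col17a1 (-0.0643 to 0.3108), Col26a1 (-0.0792 to 0.0287), Col6a2 (-0.018 to 0.0429), Col4a3 (-0.0661 to 0.1372), Col4a4 (-0.1964 to 0.1378), Col1a2 (-0.0686 to 0.0388) and Col1a1 (-0.0493 to 0.059). None of these genes was called in edgeR's main comparison, and the causes were not tested.

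The groups share replicate numbers that no label ties to a litter or day. Deviations of same-numbered libraries correlated at 0.0447 to 0.1206, and those of different numbers at -0.0877 to 0.0195, so each library correlated best with its own number, which is a hint from the data only. With the replicate block, 93 genes and 1 chain were called, and Col13a1 had a log2 fold change of -0.58 (adjusted p = 0.0411). Counts limit the rare chains most: Col17a1 and Col20a1 rested on at most 24 counts per library.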
